A study of Caenorhabditis elegans with 36 samples.

Results

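The 6 genes lin-13, lin-15A, lin-15B, lin-36, let-418 and mep-1 of the nematode Caenorhabditis elegans are synthetic multivulva (synMuv) repressors that are not subunits of the DREAM complex. They were taken by name, through their WormBase identifiers, from 46926 genes in each of 2 deposited count tables of poly(A) RNA. The tables hold 24 libraries of whole animals, 3 labelled biological replicates in each of 8 groups. Embryos and first-stage (L1) larvae were wild type (strain N2) or labelled xnp1, and were kept at 20 °C. Embryos came from adults treated with hypochlorite, and L1 larvae were such embryos held for about 11 h in M9 buffer without food. Last-stage (L4) larvae grew at 25 °C and were N2, xnp-1, gsox-1 or the double background xnp-1;gsox-1. The series' design text calls the embryo and L1 condition a knockdown of xnp-1 and the L4 backgrounds mutants, and no allele or knockdown method is named. xnp-1 is the worm orthologue of ATRX, a chromatin remodeller of the SNF2 family. Because RNA came from whole animals, fewer cells of a type and less RNA per cell cannot be told apart in any value below.

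In C. elegans, synMuv genes fall into classes whose members act redundantly: animals that lose a class A and a class B function form extra vulvae, because the epidermal growth factor gene lin-3 is then expressed outside its normal cell. Many class B proteins also keep germline genes silent in somatic cells. LIN-15A is a class A protein. LIN-15B and LIN-36 are class B proteins with a THAP-type DNA-binding domain, and LIN-13 is a zinc finger protein of the same class that binds the heterochromatin protein HPL-2. LET-418 is a Mi-2 type chromatin remodelling ATPase, and MEP-1 is a zinc finger protein that joins LET-418 and the histone deacetylase HDA-1 in the MEC complex. Work in this worm has linked xnp-1 to the synMuv gene lin-35, the worm Rb gene, through shared functions in gonad development.

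The genes lie on 4 chromosomes (coordinates of the deposited tables, gene set WS280, assembly WBcel235). lin-13 (WBGene00003002) is on chromosome III from 7700338 to 7709491 on the minus strand, with 7053 bases of exon. lin-36 (WBGene00003021) is on the same chromosome and strand from 8016648 to 8020873, with 3366 bases. let-418 (WBGene00002637) is on chromosome V from 5826833 to 5832831 with 5655 bases, and mep-1 (WBGene00003218) on chromosome IV from 11524642 to 11527954 with 3050 bases, both on the plus strand. lin-15B (WBGene00023497) and lin-15A (WBGene00023498) are neighbours on the plus strand of chromosome X, from 15726123 to 15732025 and from 15731968 to 15735365, with 4590 and 2270 bases of exon. Their annotated spans overlap by 58 bases, and the headers name no option to count a read for both genes, so reads in that stretch may be missing from both. lin-13 overlaps a small gene on its own strand with at most 1 count and a gene on the other strand with at most 18 counts in any embryo or L1 library, and counting used the strand.

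Total counts ran from 29896459 to 41520291 fragments in embryo and L1 libraries and from 39004451 to 45391494 at L4, where the header does not show whether the mates of a fragment were counted once. All 6 genes passed the filter on low counts in both tables. Their counts ran from 1371 (lin-15A) to 49224 (let-418) in embryos and L1 larvae, and from 182 (lin-15A) to 12471 (let-418) at L4. Levels are library-size-scaled counts (CPM) with TMM scaling, changes are log2 with the standard error of the fit, and a gene was called at a Benjamini-Hochberg adjusted p under 0.05 in edgeR's quasi-likelihood test over 17687 genes (embryo and L1) or 17492 genes (L4). The p-values measure the spread between labelled biological replicates. xnp-1 itself stood at 384, 433 and 386 CPM in N2 embryos and 123, 134 and 138 CPM in xnp-1 embryos, without overlap. It was also lower in each xnp-1 than in each N2 library of L1 larvae (165 to 178 against 217 to 284 CPM) and of L4 larvae (39.5 to 50.3 against 62.9 to 89.3 CPM). gsox-1 was not lower in the libraries labelled gsox-1 (75.7 to 82.5 CPM) than in N2 (42.6 to 66.7 CPM), so its transcript does not check that label.

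Some libraries stood apart from the others of their group. At L4, replicate 1 of N2 and replicate 1 of xnp-1;gsox-1 had less RNA from long genes: the median gene with over 5000 bases of exon lay 0.85 and 0.83 log2 units under its group mean there, while that of genes up to 1000 bases lay 0.28 and 0.41 above. The next lowest library by this measure, replicate 1 of xnp-1, stood at -0.33. Replicate 3 of the same 2 groups deviated the other way, by 0.61 and 0.69 for long and -0.21 and -0.28 for short genes. lin-13, the longest of the 6 genes, was 1.09 log2 units under its group mean in N2 replicate 1 and 1.08 under it in xnp-1;gsox-1 replicate 1. lin-15A, the shortest, was 0.49 and 0.44 under it. The L4 results of the 6 genes are therefore also given without these 2 replicate 1 libraries, or after a correction for exon length within each library, which covers all 12, where either changes a call. Both alternatives were chosen after the data were seen. Among embryos, replicate 1 of xnp-1 held more early RNA than its fellows: 9 early embryonic fate regulators summed to 162 CPM there, 76.1 and 80.2 CPM in the other xnp-1 embryo libraries and 71.3 to 79.9 CPM in N2.

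**Figure D1:**
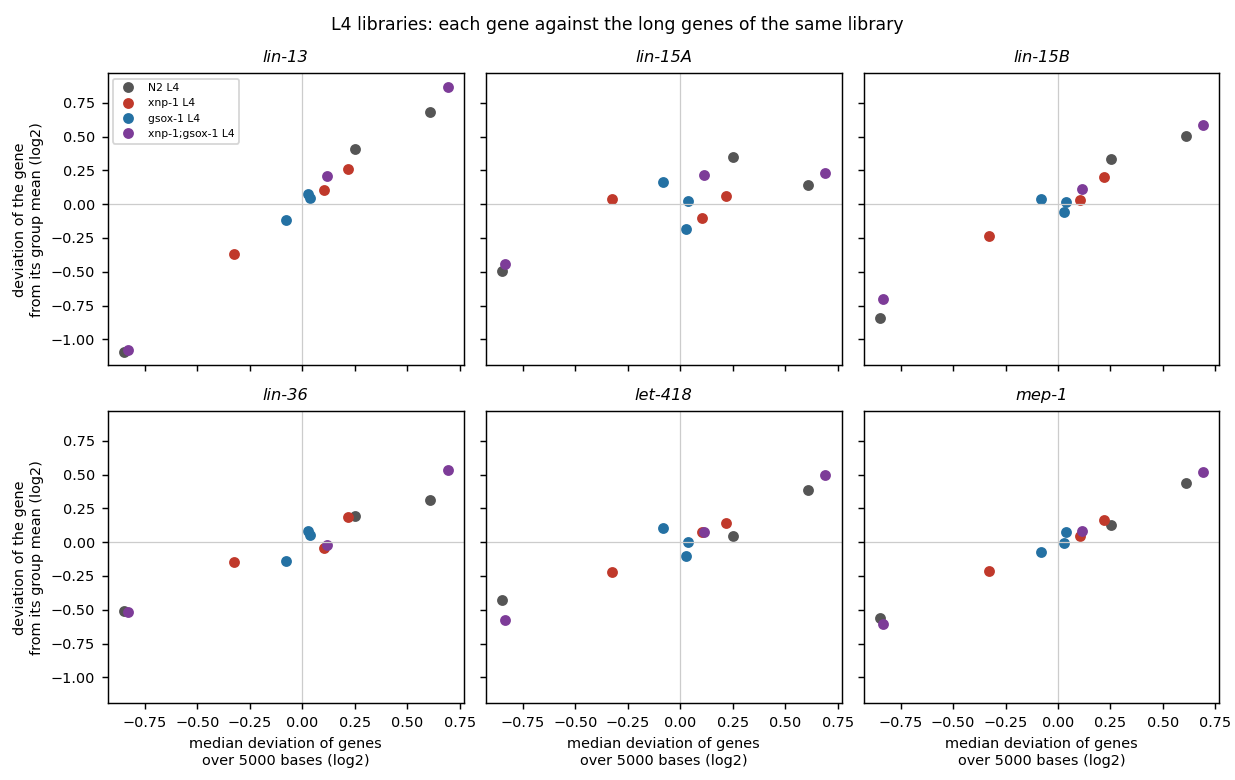
Each point is an L4 library: the x axis is the median log2 deviation from the group mean of genes with over 5000 bases of exon, the y axis the log2 deviation of the named gene, and colours are the 4 groups. In replicate 1 of N2 and of xnp-1;gsox-1, the 2 points at -0.85 and -0.83 on the x axis, each of the 6 genes lies under its group mean, and lin-13 lies farthest under it.

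Per length, the order of the 6 genes is given side by side for N2 embryos and N2 L4 larvae. Levels between genes are given as RPKM, which is CPM divided by exon length in kilobases. In N2 embryos mep-1 was at 206 ± 12.6 RPKM (SD, n = 3), let-418 at 173 ± 11.8, lin-36 at 95.7 ± 6.07, lin-13 at 73.8 ± 13.8, lin-15B at 53.1 ± 9.25 and lin-15A at 30.4 ± 4.17. In N2 L4 larvae let-418 came first at 30.5 ± 8.39 RPKM, followed by mep-1 at 24.4 ± 8.09, lin-36 at 13.97 ± 3.97, lin-13 at 11.4 ± 6.02, lin-15B at 3.54 ± 1.60 and lin-15A at 3.09 ± 0.988. The MEC genes were thus the most abundant and the lin-15 genes the least abundant at both stages. Embryo and L4 libraries were sequenced at different centres and counted with different settings, so no level was tested across them.

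**Figure D2:**
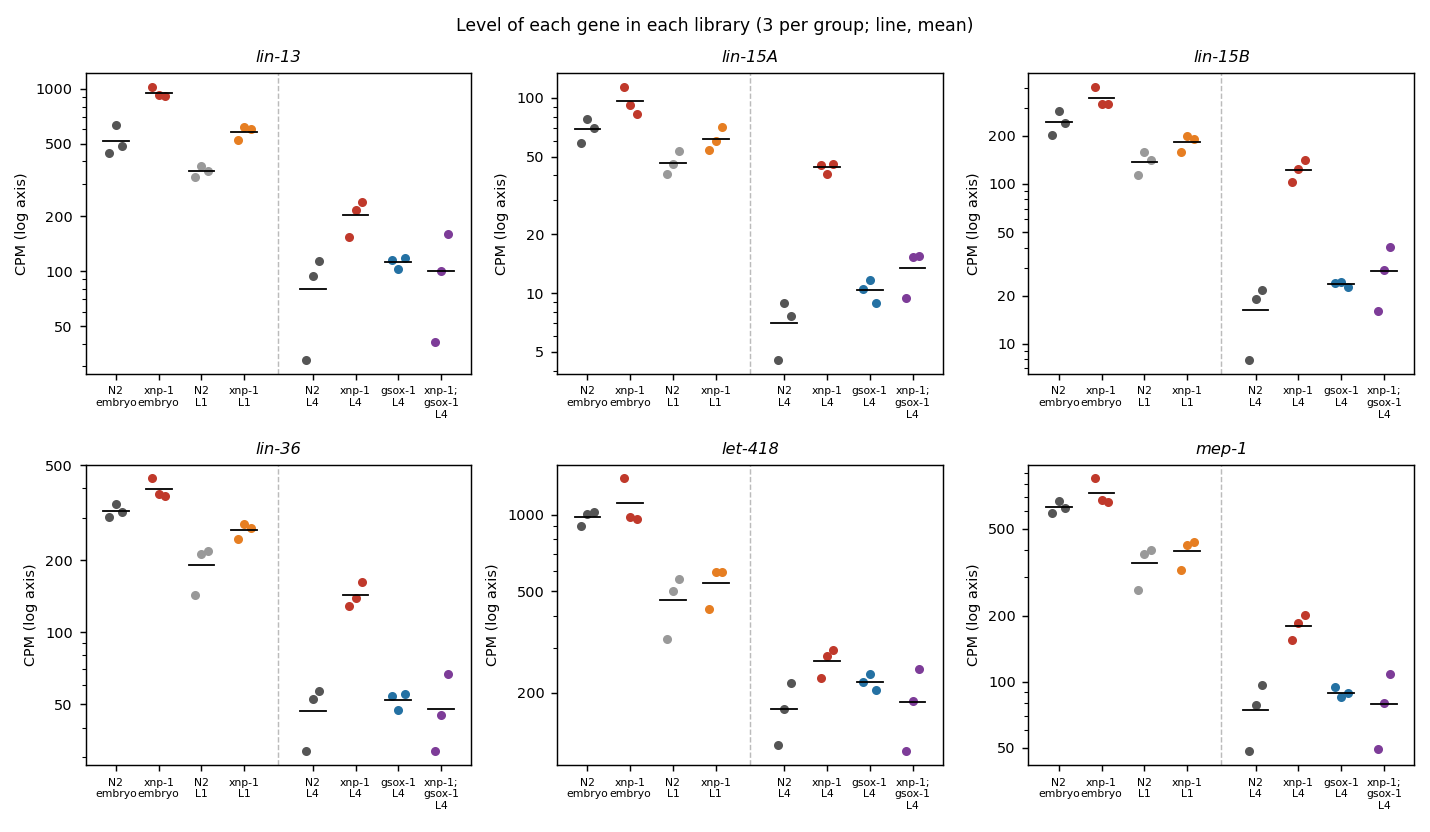
Each point is the CPM level (log axis) of the named gene in a library, black lines are means of 3 libraries, and the dashed line separates the tables, which were normalised separately. At L4 the xnp-1 libraries of lin-15A (40.8 to 46.0 CPM) and lin-15B (103 to 140.5 CPM) lie above every other L4 library of the same gene, while those of let-418 overlap with the gsox-1 and xnp-1;gsox-1 libraries and not with N2.

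lin-13 was the gene that rose in xnp-1 embryos. It stood at 444, 630.2 and 487 CPM in N2 embryos and at 1026, 924 and 917 CPM in xnp-1 embryos. All xnp-1 libraries lay above all N2 libraries, and the change was 0.88 (SE 0.152, 1.84-fold, edgeR adjusted p = 0.0141). In this comparison 1.11% of all genes tested were called and 0.43% were called higher, and 1 of the 6 genes was. 675 of 17687 genes had a larger change than lin-13. The call was lost without N2 embryo replicate 1 (0.80, edgeR adjusted p = 0.111) or replicate 3 (0.85, edgeR adjusted p = 0.0884), and without xnp-1 embryo replicate 1 (0.80, edgeR adjusted p = 0.0569) or replicate 3 (0.91, edgeR adjusted p = 0.0516).

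The other 5 genes did not pass the threshold in embryos. lin-15A, the class A gene, was at 59.0, 77.9 and 69.9 CPM in N2 and 114, 92.4 and 82.9 CPM in xnp-1 embryos (0.48, SE 0.177, edgeR adjusted p = 0.262). Its neighbour lin-15B was at 204, 289 and 239 CPM against 406, 319 and 315 CPM (0.51, SE 0.179, edgeR adjusted p = 0.248). For both, the xnp-1 libraries lay above the N2 libraries without overlap, as they also did for lin-13 and lin-36, so this held for 4 of the 6 genes and for 9.51% of all genes tested. lin-36 was at 304 to 344 CPM in N2 and 372 to 441 CPM in xnp-1 embryos (0.30, edgeR adjusted p = 0.527). let-418 (900.3 to 1025 against 959.6 to 1389.8 CPM) and mep-1 (593 to 669 against 665 to 851 CPM) overlapped between the groups, with changes of 0.18 and 0.22 (edgeR adjusted p = 0.787 and 0.709). Replicate 1 was the highest xnp-1 embryo library for each of the 6 genes. Without it, let-418 changed by -0.0303, mep-1 by 0.0743, lin-36 by 0.20, lin-15A by 0.33 and lin-15B by 0.36.

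In L1 larvae the values were of similar size, and their calls depended on the fit. lin-13 was at 328, 379.9 and 355 CPM in N2 and 525, 615 and 603 CPM in xnp-1 larvae, again without overlap (0.71, SE 0.151, edgeR adjusted p = 0.0675). lin-36 was at 143, 213 and 218 CPM against 244, 285 and 273 CPM (0.48, SE 0.166, edgeR adjusted p = 0.472). lin-15B was at 113, 158 and 142 CPM against 159.6, 200.4 and 190.3 CPM (0.41, edgeR adjusted p = 0.703), and lin-15A at 40.6 to 53.5 against 53.8 to 70.5 CPM (0.40, edgeR adjusted p = 0.719). Libraries of the 2 groups did not overlap for these 4 genes, including lin-15A (N2 maximum 53.5 and xnp-1 minimum 53.8 CPM), and for 5.73% of all genes tested. let-418 and mep-1 overlapped (0.22 and 0.18, edgeR adjusted p = 0.951 and 0.956). None of the 6 genes was called by edgeR, where 0.481% of all genes were. 4 of them were under an unadjusted p of 0.05, as were 6.69% of all genes. DESeq2 called 1, lin-13, and its share over all genes is not given here.

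Same-numbered L1 libraries of the 2 groups deviated together, so the replicate number was taken to pair them. The labels state no pairing. With the replicate block in the fit of all 4 groups, lin-13 was called (0.71, edgeR adjusted p = 0.0497), and 0.362% of all genes were called higher. With the block and only the 6 L1 libraries in the fit, 4 of the 6 genes were called higher: lin-13 (0.70, edgeR adjusted p = 0.000508), lin-15A (0.39, edgeR adjusted p = 0.0139), lin-15B (0.41, edgeR adjusted p = 0.00958) and lin-36 (0.50, edgeR adjusted p = 0.0110). That fit called 3.52% of all genes higher. For these 4 genes the sizes of the changes were thus nearly the same in the main fit and in that fit, and the standard errors were not. With 1 library left out, lin-13 ranged from 0.66 to 0.79 and lin-15A from 0.29 to 0.51. lin-15B then ranged from 0.28 to 0.51, lin-36 from 0.31 to 0.59, let-418 from 0.0176 to 0.39 and mep-1 from 0.00318 to 0.30. The xnp-1 effect did not differ detectably between L1 larvae and embryos for any of the 6 genes (differences from -0.16 to 0.18, edgeR adjusted p = 0.9999 for each). None of the 6 was under an unadjusted p of 0.05 in edgeR or called by DESeq2 there. Over all genes edgeR called 0, with 454 under an unadjusted p of 0.05, and DESeq2 called 3.

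All 6 genes were lower in L1 larvae than in embryos. In N2 the fall was 1.08 log2 units for let-418 (SE 0.219, edgeR adjusted p = 0.00168), 0.85 for mep-1, 0.82 for lin-15B, 0.75 for lin-36 and 0.56 for both lin-15A and lin-13, each past the threshold. let-418 went from 900.3 to 1025 CPM in embryos to 324 to 559 CPM in L1 larvae. In the xnp-1 animals let-418 changed by -1.04, lin-15B by -0.92, mep-1 by -0.89, lin-13 by -0.72, lin-15A by -0.65 and lin-36 by -0.57, and all 6 were called. In N2 25.2% of all genes were called lower between these stages and in xnp-1 animals 27.6%. No L1 library overlapped with an embryo library of the same genotype for any of the 6. Of all genes tested, 32% (N2) and 31.6% (xnp-1) were lower in L1 larvae without overlap. The median of all genes tested was 0.10 in N2 and 0.11 in xnp-1 animals. With scaling by library totals these medians were 0.19 and 0.30. With DESeq2 they were 0.41 and 0.51, but over all genes with a count, without the filter, so not over the same genes. The 6 genes stayed lower in both. With library totals lin-36 in xnp-1 animals was no longer called (-0.38, edgeR adjusted p = 0.0723). The lin-15A call in N2 was lost without N2 embryo replicate 2 or 3 or N2 L1 replicate 1 or 2 (-0.56 to -0.47, edgeR adjusted p = 0.0583 to 0.0643).

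In xnp-1 L4 larvae 5 of the 6 genes were called higher than in N2, and the lin-15 pair rose most. lin-15B stood at 7.90, 19.2 and 21.7 CPM in N2 and at 103, 124 and 140.5 CPM in xnp-1 larvae. The lowest xnp-1 library was thus several times above the highest N2 library, and the change was 2.92 (SE 0.388, 7.55-fold, edgeR adjusted p = 9.86e-05). lin-15A stood at 4.53, 8.90 and 7.60 CPM in N2 and at 45.3, 40.8 and 46.0 CPM in xnp-1 larvae (2.65, SE 0.278, 6.28-fold, edgeR adjusted p = 2.05e-05). 706 and 811 of 17492 genes had a larger change than lin-15B and lin-15A. Both genes lie on chromosome X, where 15.2% of the genes tested were called higher and the median change was -0.34. In all, 23.3% of the genes tested were called higher and 25.3% lower in this comparison, with a median of -0.16.

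lin-36 rose from 31.8, 52.4 and 56.8 CPM in N2 to 129, 139 and 162 CPM in xnp-1 larvae (1.61, SE 0.278, 3.04-fold, edgeR adjusted p = 0.000606). mep-1, the zinc finger subunit of the MEC complex, rose from 48.1, 78.0 and 97.0 CPM to 155, 186 and 202 CPM (1.28, SE 0.296, 2.43-fold, edgeR adjusted p = 0.00385). lin-13 was at 32.5, 94.2 and 114 CPM in N2 and at 155, 216 and 240.0 CPM in xnp-1 larvae (1.34, SE 0.481, 2.54-fold, edgeR adjusted p = 0.0363). let-418, the ATPase, was at 124, 173 and 219 CPM against 228, 279 and 293 CPM and was not called (0.63, SE 0.273, edgeR adjusted p = 0.0749). For all 6 genes each xnp-1 library lay above each N2 library, as it did for 29.6% of all genes, although for let-418 the gap between the groups was narrow.

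The lin-13 and let-418 calls at L4 turned on the libraries and the fit. Without N2 replicate 1, the library with few long transcripts, lin-13 changed by 0.97 (edgeR adjusted p = 0.0920). Its call was also lost without N2 replicate 2 (1.47, edgeR adjusted p = 0.0598), xnp-1 replicate 2 (1.30, edgeR adjusted p = 0.0806) or xnp-1 replicate 3 (1.21, edgeR adjusted p = 0.102), and with no filter on low counts (1.35, edgeR adjusted p = 0.0513). With replicate 1 of N2 and of xnp-1;gsox-1 both left out, all 6 genes were called higher, lin-13 at 0.97 (edgeR adjusted p = 0.00491) and let-418 at 0.44 (edgeR adjusted p = 0.0434), as were 26.8% of all genes. After the correction for exon length 5 were called, lin-13 at 1.06 (edgeR adjusted p = 3.36e-05), as were 25% of all genes, while let-418 was at 0.21 (edgeR adjusted p = 0.276). Same-numbered libraries of xnp-1 and N2 deviated together, and with the replicate block in a fit of these groups alone let-418 was called too (0.70, edgeR adjusted p = 0.00765), with 28.8% of all genes higher. With the block over all 4 groups it was called as well (0.66, edgeR adjusted p = 0.0223), beside 25.1% of all genes higher. The gsox-1 libraries in that fit were not taken as paired with N2 or xnp-1;gsox-1. Without N2 replicate 3 let-418 was called at 0.84 (edgeR adjusted p = 0.04), and the share over all genes is not given here. In all, let-418 was called under 8 and lin-13 under 10 of the 15 alternatives run. lin-15B, lin-15A, lin-36 and mep-1 were called under each of these, with changes of 2.59 to 3.18, 2.41 to 2.86, 1.26 to 1.76 and 0.96 to 1.52.

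Markers of cell types moved in the same L4 libraries, and their part in these results was not tested. All 9 germline markers were called higher in xnp-1 larvae (median 2.38), and their summed level was 592 to 1118 CPM in N2, 4058 to 5085 in xnp-1, 879.8 to 1083 in gsox-1 and 464 to 1177 in xnp-1;gsox-1. All 10 oocyte markers were higher as well (median 4.46), at 111 to 299.6 CPM in N2, 4396 to 5305 in xnp-1, 137 to 209 in gsox-1 and 88.5 to 224 in xnp-1;gsox-1. Of 8 hypodermis markers 4 fell, the cuticle collagen genes dpy-7, rol-6, sqt-3 and bli-1, and the other 4, the transcription factor genes nhr-25, elt-1, elt-3 and lin-26, were at -1.50, -0.21, 0.20 and 0.39 and were not called (edgeR adjusted p = 0.0657 to 0.675). These 8 are all markers of the list, named here after their values were seen. The hypodermis sum was 4114 to 4675 CPM in N2, 195 to 408 in xnp-1, 3854 to 6254 in gsox-1 and 2532 to 4665 in xnp-1;gsox-1. Markers of other tissues were called too, in a comparison where 48.5% of all genes tested were called. Lower were 4 of 9 sperm (median -0.81), 3 of 7 intestine (-0.44) and 3 of 7 body wall muscle markers (-0.44). Of 8 neuron markers 5 were lower and 1 higher (median -0.68). None of these markers was at 0 in all libraries of any of the 4 groups. Embryo groups differed less in germline markers, which summed to 968 to 1052 CPM in N2 and to 951, 984 and, in replicate 1, 1584 CPM in xnp-1.

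**Figure D3:**
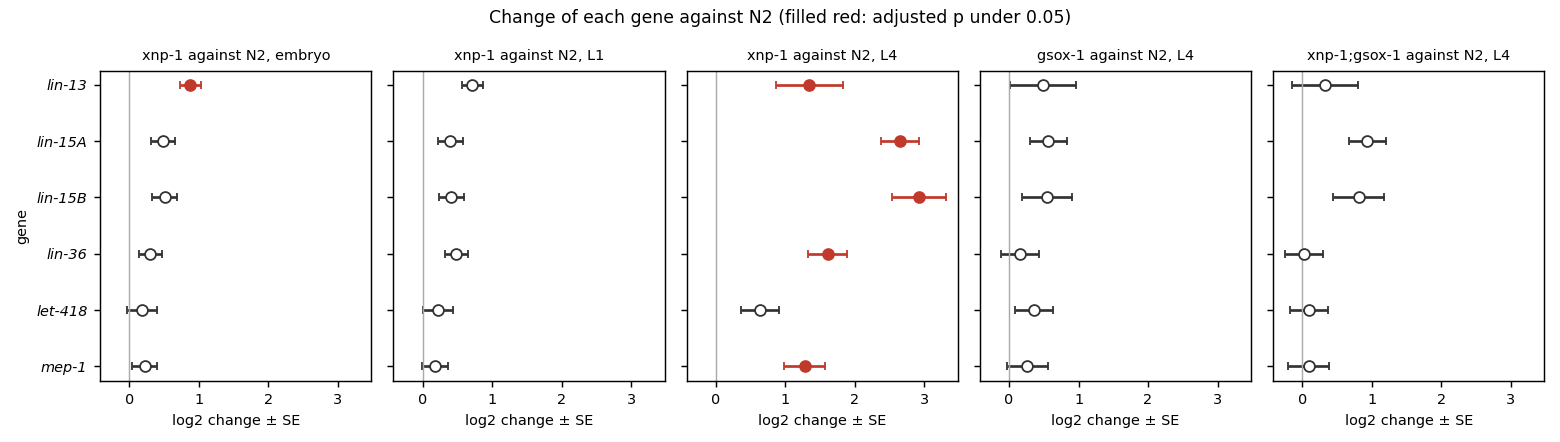
Points are log2 changes against N2 of the same stage with the standard error of the fit, 1 panel per comparison, and filled red points are called by edgeR. Only lin-13 is filled in embryos (0.88) and none in L1 larvae, 5 genes are filled in xnp-1 L4 larvae, led by lin-15B (2.92), and none in libraries labelled gsox-1 or xnp-1;gsox-1.

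The libraries labelled gsox-1 did not differ detectably from N2 in any of the 6 genes. Changes ran from 0.15 (lin-36) to 0.56 (lin-15A), with edgeR adjusted p from 0.882 to 0.911, in a comparison where 0.0229% of all genes were called. None of the 6 was under an unadjusted p of 0.05 in edgeR or called by DESeq2. lin-15A was at 10.5, 11.7 and 8.93 CPM and lin-15B at 24.0, 24.3 and 22.8 CPM, which for both lay just above the 3 N2 libraries. This separation held for 2 of the 6 genes and for 5.21% of all genes.

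In the double background the levels lay far under those of xnp-1 alone. lin-15B was at 16.03, 28.9 and 40.6 CPM in xnp-1;gsox-1, against 103 to 140.5 CPM in xnp-1, a change of -2.11 (SE 0.376, edgeR adjusted p = 0.000857). lin-15A was at 9.38, 15.4 and 15.5 CPM (-1.71, SE 0.268, edgeR adjusted p = 0.000358), lin-36 at 31.8, 45.1 and 67.0 CPM (-1.58, SE 0.278, edgeR adjusted p = 0.00079) and mep-1 at 49.2, 79.8 and 108 CPM (-1.19, SE 0.295, edgeR adjusted p = 0.00657). For these 4 genes every xnp-1;gsox-1 library lay under every xnp-1 library, as it did for 28.1% of all genes, and 21.9% of all genes were called lower. lin-13 (40.7, 101 and 159.9 CPM) overlapped with xnp-1 (-1.02, SE 0.477, edgeR adjusted p = 0.103), and so did let-418 (118, 186 and 249 CPM; -0.53, SE 0.273, edgeR adjusted p = 0.131). Replicate numbers were taken to pair these libraries, because same-numbered ones deviated together. With the block in a fit of these groups alone lin-13 was called (-1.20, edgeR adjusted p = 0.00479), beside 25.5% of all genes lower. let-418 was not called there (-0.59, edgeR adjusted p = 0.0632). With the block over all 4 groups both were called (-1.17 and -0.58, edgeR adjusted p = 0.0182 and 0.0417; 24.2% of all genes lower). Without replicate 1 of N2 and of xnp-1;gsox-1, lin-13 was called (-0.64, edgeR adjusted p = 0.0365), as were 26% of all genes. After the correction for exon length it was called at -0.54 (edgeR adjusted p = 0.00412; 23.3% of all genes lower), and let-418 was at 0.0343. Without xnp-1;gsox-1 replicate 3 both were called (lin-13 -1.55, edgeR adjusted p = 0.0242, and let-418 -0.84, edgeR adjusted p = 0.0272). The share of all genes called in that fit is not given here.

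Against N2, none of the 6 genes was called in the double background by edgeR, where 1.04% of all genes were. lin-15A was at 0.94 (SE 0.266, edgeR adjusted p = 0.140) and lin-15B at 0.81 (SE 0.365, edgeR adjusted p = 0.372). Both were under an unadjusted p of 0.05, as were 13% of all genes. The other 4 genes were between 0.0286 and 0.32. DESeq2 called 1, lin-15A (0.95, DESeq2 adjusted p = 0.0301), and its share over all genes is not given here. All 3 lin-15A libraries lay above the N2 libraries, as was the case for 5.96% of all genes. Replicate numbers were taken to pair these groups too. With the block in a fit of these 6 libraries alone lin-15A (0.98, edgeR adjusted p = 0.00686) and lin-15B (0.86, edgeR adjusted p = 0.00392) were called, as were 3.43% of all genes in the same direction. With the block over all 4 groups neither was called (edgeR adjusted p = 0.114 and 0.199). Without replicate 1 of both groups lin-15A was called (0.90, edgeR adjusted p = 0.0266; 0.595% of all genes higher). After the correction for exon length both lin-15 genes were called (lin-15A 1.00, edgeR adjusted p = 0.0278, and lin-15B 0.99, edgeR adjusted p = 0.00271; 0.715% of all genes higher). Against the libraries labelled gsox-1, the 6 genes changed by -0.27 to 0.38 and none was called by edgeR or DESeq2 or under an unadjusted p of 0.05 in edgeR, where 0.652% of all genes were called. The correction for exon length gave 1 call there, lin-15B at 0.69 (edgeR adjusted p = 0.0233; 0.675% of all genes higher).

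The test of the interaction asked whether the xnp-1 effect differed between the 2 backgrounds. It was lower beside gsox-1 than alone for lin-15B (-2.65, SE 0.521, edgeR adjusted p = 0.00296), lin-15A (-2.27, SE 0.376, edgeR adjusted p = 0.00119), lin-36 (-1.73, SE 0.387, edgeR adjusted p = 0.00589) and mep-1 (-1.46, SE 0.414, edgeR adjusted p = 0.0189). lin-13 (-1.50, edgeR adjusted p = 0.104) and let-418 (-0.90, edgeR adjusted p = 0.0924) did not pass. In all, 33.3% of the genes tested were called, and 16.1% of the genes tested were called in this direction. The correction for exon length also called lin-13 (-0.72, edgeR adjusted p = 0.00926; 16.8% of all genes in this direction) and put let-418 at 0.0752 (edgeR adjusted p = 0.826). Without xnp-1;gsox-1 replicate 3 lin-13 and let-418 were called too (-2.08 and -1.24, edgeR adjusted p = 0.026 and 0.0203). The share of all genes called without that library is not given here. The interaction uses the same libraries as the comparisons above and is no separate evidence.

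By mean level in embryos and L1 larvae, xnp-1 embryos came first for each of the 6 genes and N2 L1 larvae last. For lin-15B and lin-36 no neighbouring groups overlapped in this order, which ran from xnp-1 embryos through N2 embryos and xnp-1 L1 larvae to N2 L1 larvae. lin-13 differed in that xnp-1 L1 larvae (581 ± 48.6 CPM, SD, n = 3) stood above N2 embryos (521 ± 97.3 CPM), although these overlapped. let-418 and mep-1 overlapped between genotypes within each of these stages. At L4 xnp-1 was first for each gene and N2 last, and let-418 was the gene whose xnp-1 libraries overlapped with the next group. The spread in N2 L4 larvae was widest for lin-13, with a coefficient of variation of 53.0%, against 6.98% in the libraries labelled gsox-1.

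Ratios within a library separate genes without any scaling between libraries. They are not free of the exon length deviations of L4 libraries, because the genes differ in exon length. Per length, lin-15B was 1.69 to 1.88 times lin-15A in embryos of both genotypes and 1.31 to 1.71 times in L1 larvae. At L4 the ratio was 0.861 to 1.41 in N2, 1.13 to 1.51 in xnp-1 and 0.845 to 1.29 in xnp-1;gsox-1. In N2 and xnp-1;gsox-1 it was lowest in replicate 1 and highest in replicate 3, the libraries low and high in long genes. The ranges of N2 and xnp-1 overlapped at L4, while the levels of both genes did not. Transcripts of the MEC complex genes shifted against each other at L4. Per length, let-418 was 1.20 to 1.40 times mep-1 in N2 and 0.785 to 0.811 times in xnp-1 L4 larvae, without overlap. The ratio was 1.25 to 1.51 in gsox-1 and 1.24 to 1.29 in xnp-1;gsox-1. In embryos and L1 larvae of both genotypes it was 0.668 to 0.885. chd-3, the second Mi-2 type gene of the worm and a paralogue of let-418, changed by 0.12 at L4 (edgeR adjusted p = 0.807). Per length, let-418 was 1.02 to 1.35 times chd-3 in embryos and L1 larvae, 2.41 to 3.55 times in N2 L4 larvae and 4.04 to 4.61 times in xnp-1 L4 larvae. Reads shared by these paralogues would have been removed or assigned by the authors' alignment, which the tables do not show.

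Most partners of the 6 repressors were also higher in the xnp-1 L4 libraries, where 23.3% of all genes tested were called higher. Of 8 DREAM complex genes all were called higher (median 1.51), among them lin-54 (1.90), lin-37 (1.68) and efl-1 (1.63). Of 6 partners in the NuRD and MEC complexes 5 rose (median 1.21), among them the deacetylase gene hda-1 (1.39), the histone chaperone genes lin-53 (1.40) and rba-1 (1.32) and, close to the threshold, lin-40 (0.65, edgeR adjusted p = 0.0472), and chd-3 was not called. Of 7 heterochromatin partners (HP1 proteins, H3K9 methylation) 6 rose, among them arle-14 (1.97), the methyltransferase gene met-2 (1.23), lin-61 (0.83) and hpl-2 (0.58), and hpl-1, named here after its value was seen, fell by 0.76. Of the 3 other class A genes lin-38 (0.92) and lin-56 (0.91) rose. Of 4 genes of the class C Tip60 acetyltransferase complex only mys-1 (1.77) was called by edgeR. DESeq2 called 3 of these 4, and its share over all genes is not given here. The median of all genes tested was -0.16. Of 8 genes whose loss suppresses synMuv phenotypes 7 rose (median 1.23), among them isw-1 (1.53), mes-6 (1.09) and mrg-1 (1.09). Both alternatives for the L4 libraries gave the same counts for these lists, except that leaving out replicate 1 of both groups called 2 Tip60 and 8 suppressor genes and the length correction 4 and 8.

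Of 10 germline genes known to be repressed in somatic cells by class B proteins 9 were called higher in xnp-1 L4 larvae (median 1.34), among them glh-2 (2.64), pgl-3 (1.45) and him-3 (1.09), in libraries in which the germline markers rose too, beside 23.3% of all genes tested. In L1 larvae rec-8, a meiotic cohesin gene, was the 1 gene of the 10 that was called (1.39, SE 0.220, edgeR adjusted p = 0.0123), beside 0.362% of all genes called higher. In embryos none of the 10 was called by edgeR, and 4 were under an unadjusted p of 0.05, as were 11.8% of all genes. DESeq2 called 2 of the 10 in embryos, and its share over all genes is not given here. Of 11 tested genes of the vulval EGF and Ras pathway 4 rose at L4 and none fell (median 0.31), among them lin-3, the ligand gene (1.51, SE 0.174, edgeR adjusted p = 3.62e-05), the Raf gene lin-45 (1.72) and the adaptor gene sem-5 (0.87), and 3 of the other 7 were below 0. Without replicate 1 of N2 and of xnp-1;gsox-1, 5 of the 11 were called higher and 2 lower. In xnp-1;gsox-1 against N2 no gene of the DREAM, NuRD and MEC, heterochromatin, class A, Tip60, suppressor, germline target or vulval lists was called by edgeR or by DESeq2. At an unadjusted p under 0.05 edgeR had 1 DREAM, 2 NuRD and MEC, 1 germline target and 1 vulval gene there, beside 13% of all genes.

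**Figure D4:**
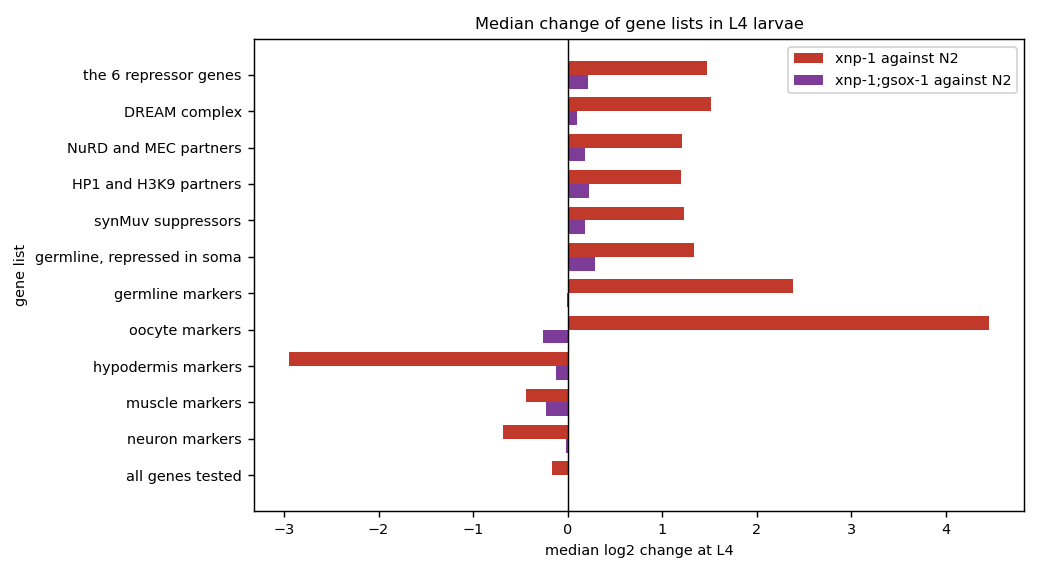
Bars are the median log2 change at L4 of each gene list, against N2, in xnp-1 (red) and in xnp-1;gsox-1 (purple), with the median of all genes tested at the bottom. The 6 repressor genes (1.47 and 0.21) are shown beside their partner lists. In xnp-1 they lie under the DREAM genes (1.51), germline markers (2.38) and oocyte markers (4.46) and above all genes (-0.16). In xnp-1;gsox-1 they lie under the heterochromatin partners (0.23) and the germline genes repressed in soma (0.29). There they lie above the other lists shown, among them germline markers (-0.0115) and oocyte markers (-0.26), and above all genes (0).

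Most genes of the partner lists were lower in L1 larvae than in embryos, as the 6 genes were. In N2 all 8 DREAM genes (median -1.14), all 6 NuRD and MEC partners (-1.01), 4 of 7 heterochromatin partners (-0.47), 6 of 8 suppressors (-0.79), 2 of 3 class A genes (-0.71) and 3 of 4 Tip60 genes (-0.72) were called lower, beside 25.2% of all genes, whose median was 0.10. The median of the 6 repressor genes was -0.79. In xnp-1 embryos no gene of these lists was called by edgeR or DESeq2. The first 4 lists had medians of 0.31, 0.17, 0.23 and 0.28, and 1 suppressor gene was under an unadjusted p of 0.05 in edgeR, as were 11.8% of all genes. Without xnp-1 embryo replicate 1 these medians were 0.00207, -0.00109, 0.00769 and 0.0204. lin-13 was at 0.80 without that library and was no longer called (edgeR adjusted p = 0.0569).

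The genes with the most similar patterns over the 8 groups were found by the root mean square difference of group mean log2 CPM, centred within each table, among 8458 named genes. For lin-13 they were gsox-1 itself (0.138), the condensin gene mix-1 (0.152) and pkhm-2 (0.174), and for lin-15A eri-9 (0.104), eri-7 (0.125) and ceh-21 (0.154). inx-14, a gap junction gene (0.133), bath-27 (0.185) and eri-9 (0.185) were nearest to lin-15B. lin-36 had much closer neighbours in set-21 (0.0566), the importin gene ima-2 (0.068) and mans-4 (0.074), as had let-418 in spin-4 (0.043), the Src kinase gene src-1 (0.0575) and lin-40 (0.0706), and mep-1 in wve-1 (0.0396), sel-10 (0.0449) and ints-7 (0.0467). Of the 15 pairs among the 6 genes, lin-15A with lin-15B (0.161) and lin-36 with mep-1 (0.162) were nearest, and lin-15B with let-418 (0.641) was farthest apart. These distances rest on group means of 24 libraries that share stage and genotype and are a description only.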

How the data were processed

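The values are raw counts per gene that the authors deposited in 2 tables, per the file headers made with featureCounts 2.0.1 (embryo and L1, fragments, minimum overlap 60 bases) and 2.0.6 (L4), by strand, with a mapping quality of at least 10, on exons of gene set WS280. The submitters' processing notes also name FastQC, Trim Galore, STAR and SAMtools, without versions. Gene names were matched for 44114 of 46926 identifiers. Each table was fitted separately, with its 4 groups, in edgeR 4.0.16 (R 4.3.3, limma 3.58.1): TMM scaling, filterByExpr, robust quasi-likelihood tests, two-sided, with Benjamini-Hochberg adjustment over all genes tested. Total counts ran from 29896459 to 45391494 per library, and the lowest count of any of the 6 genes was 182, so standard errors reflect mainly the spread between replicates. DESeq2 1.42.0, other scalings, no filter, the compared groups alone, a replicate block and leaving out each library were alternatives. Leaving out replicate 1 of N2 and xnp-1;gsox-1 at L4 and a correction for exon length were added after the data were seen. The test script was tested on simulated data.

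The 6 genes and the 16 gene lists (126 entries, of which let-341 and opt-2 had no match) were chosen with earlier results of these data known. Named in the text are the 6 genes, xnp-1, gsox-1, 6 complex partners, up to 3 genes per list and comparison with the smallest adjusted p, and the 3 nearest patterns per gene. hpl-1 and the hypodermis markers fall outside this rule. Replicate numbers were taken to pair samples where every same-numbered pair correlated above 0.1 in its deviations from the group means: L1 larvae (0.785, 0.505 and 0.712), xnp-1 with N2 at L4 (0.236, 0.158 and 0.151), xnp-1;gsox-1 with N2 (0.548, 0.319 and 0.421) and xnp-1;gsox-1 with xnp-1 (0.271, 0.136 and 0.154). The labels number biological replicates and state no pairing, so this rule rests on the same libraries that were tested. At L4, long genes were also low in replicate 1 and high in replicate 3 of N2, xnp-1 (-0.33 and 0.22) and xnp-1;gsox-1. The part of this in the correlations was not tested. A table of small RNA counts was not used here.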

Additional observations from a re-analysis of the deposited data

Results flagged for a closer look

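The effect of xnp-1 at L4 differed between the backgrounds with and without gsox-1 in edgeR's interaction test for 4 of the 6 repressor genes and 3 partners. The differences were -2.65 for lin-15B (edgeR adjusted p = 0.00296), -2.27 for lin-15A (edgeR adjusted p = 0.00119), -1.73 for lin-36 (edgeR adjusted p = 0.00589) and -1.46 for mep-1 (edgeR adjusted p = 0.0189). Among the partners they were -1.58 for the deacetylase gene hda-1 (edgeR adjusted p = 0.00267), -1.41 for lin-35, the Rb gene (edgeR adjusted p = 0.000947), and -1.10 for lin-53 (edgeR adjusted p = 0.00497). A difference of this kind was found for 33.3% of all genes tested. The libraries labelled gsox-1 did not have less gsox-1 RNA than N2, and gsox-1 itself was higher in xnp-1 larvae (149.9, 159 and 179 CPM, against 42.6 to 66.7 CPM in N2).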

How the results depend on the processing

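Of 978 alternative values for the 66 changes of the 6 genes, 884 kept their direction and their side of the threshold, 37 passed it newly, 14 lost it and 43 changed sign, none of the last from a value that was called. Counts of the 6 genes called moved by over 1.5 times in 13 of 163 alternatives, and the cause was not tested. In xnp-1 embryos leaving out 1 library gave 0 to 1 called. In L1 larvae library totals, DESeq2 and the replicate block over all 4 groups each gave 1, and the compared groups alone with the replicate block gave 4, where 2002 of all genes were called against 85. In xnp-1;gsox-1 against N2, DESeq2 gave 1, the compared groups alone with the replicate block 2, leaving out replicate 1 of both groups 1 and the correction for exon length 2. Against gsox-1 the correction gave 1. The replicate block changed calls of the 6 genes in these, in the L4 comparisons described above, and for the interaction, where it called lin-13 (-1.87, edgeR adjusted p = 0.0147) and let-418 (-0.99, edgeR adjusted p = 0.0239) too. That interaction fit called 36.7% of all genes tested, and 19.1% of all genes in this direction. The interaction uses gsox-1 libraries, whose replicate numbers were not taken to pair them with N2 (r from -0.41 to -0.0813) or xnp-1;gsox-1 (-0.24 to -0.0141).

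After the change of sign the values were at most 0.34 in size. The main values they came from reached 0.90 in size, and none of these was called. Leaving out 1 library, let-418 ranged from -0.0303 to 0.32 in embryos. For the stage difference the ranges were -0.17 to 0.24 for let-418, -0.19 to 0.060 for lin-15A, -0.23 to 0.0415 for lin-15B and -0.22 to 0.0923 for mep-1. With RLE size factors and DESeq2 let-418 was at -0.0149 and -0.0168 there, and with library totals lin-15A was at 0.00171 and mep-1 at 0.0446. In gsox-1 against N2, lin-36 ranged from -0.0647 to 0.31, and was at -0.0645 without both replicate 1 libraries and at -0.0728 after the length correction, which put let-418 at -0.0409. In xnp-1;gsox-1 against N2 the ranges were -0.13 to 0.70 for lin-13, -0.25 to 0.25 for lin-36, -0.14 to 0.33 for let-418 and -0.16 to 0.34 for mep-1. Against gsox-1 they were -0.67 to 0.22 for lin-13, -0.079 to 0.55 for lin-15B, -0.44 to 0.10 for lin-36 and -0.47 to 0.0744 for mep-1. There, leaving out both replicate 1 libraries gave 0.22 for lin-13, 0.10 for lin-36 and 0.0745 for mep-1, and the length correction gave 0.34, 0.20 and 0.099, and 0.29 for let-418. The length correction put let-418 at 0.0343 in xnp-1;gsox-1 against xnp-1 and at 0.0752 for the interaction. The main fit gave -0.53 and -0.90 for these.

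lin-15A had as few as 182 counts at L4. Embryo and L4 values come from different centres and settings, are set side by side where both are given, and were not tested against each other. Partner and marker lists were run under DESeq2, both added L4 alternatives and without xnp-1 embryo replicate 1 only.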
